A study of Mus musculus with 2 samples.

Results

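Prostaglandins and leukotrienes are lipid mediators that cells make from arachidonic acid, and 10 genes for the enzymes of these pathways were described in the whole omentum of wild-type (WT) and Postn-DTR mice. The genes were taken by symbol from the deposited values. They were the cyclooxygenases Ptgs1 and Ptgs2, the prostanoid synthases Ptges, Ptgis and Ptgds, the prostaglandin-degrading enzyme Hpgd, the leukotriene genes Alox5, Alox5ap and Ltc4s, and the lipoxygenase Alox15. All 10 were among the 24346 gene symbols listed, and 9 of them belonged to the 13127 genes whose FPKM averaged 1 or more across the libraries, the set in which changes were compared. FPKM counts sequenced fragments relative to transcript length and to all fragments mapped, so that levels of different genes can be set side by side. The gene left out by this minimum was Ptgs2.

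The study addressed the role of Aldh1a2+ fibroblastic reticular cells in milky spots, the lymphoid clusters of the omentum, a sheet of abdominal fat, and sequenced whole omenta to look into how lymphocytes are drawn there. One group was WT mice and the other was Postn-DTR mice, in which the diphtheria toxin receptor is inserted into the first coding exon of 1 copy of Postn, which makes cells with an active Postn promoter sensitive to diphtheria toxin (DT). Both groups were given DT, and whole omenta were taken 5 days later. There was 1 library per genotype, and the number of mice behind each library and their age were not given in the sources used here. Postn is also used by mesenchymal cells outside the omentum, and ablation there was not measured here.

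Arachidonic acid is freed from membranes by phospholipases. Cyclooxygenases turn it into an unstable prostaglandin, which terminal synthases convert into prostaglandin E2, prostacyclin, prostaglandin D2 or thromboxane, and a dehydrogenase then inactivates several of these. In the other branch, 5-lipoxygenase, helped by the membrane protein FLAP (the product of Alox5ap), makes leukotriene A4, which is hydrolysed to the neutrophil attractant leukotriene B4 or joined to glutathione by leukotriene C4 synthase to give the cysteinyl leukotrienes. Leukotriene enzymes are known from myeloid cells and mast cells, and Alox15 is known in mice from resident peritoneal macrophages and eosinophils.

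The start regions of 4 of these genes are shown for reference. Alox5 and Ltc4s were both higher in Postn-DTR, and Ptgs1 and Ptgs2 encode the same activity at very different levels. Whether the start regions bear on these levels was not tested. The sequences are from RefSeq on GRCm38.p6 (the assembly also called mm10), and 7 of the 10 genes had an entry. Each is the gene's own strand, 5′ to 3′, ending at the base before the start. Ltc4s is given only up to the GENCODE start of the gene, which is 166 of 250 bases. Capitals mark a GC box.
Alox5, chr6:116461179-116461428, minus strand: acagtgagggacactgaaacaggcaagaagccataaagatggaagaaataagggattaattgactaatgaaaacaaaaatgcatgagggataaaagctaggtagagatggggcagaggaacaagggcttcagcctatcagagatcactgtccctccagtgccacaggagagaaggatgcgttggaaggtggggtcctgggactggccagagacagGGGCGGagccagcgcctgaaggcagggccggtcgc
Ltc4s, chr11:50238617-50238782, minus strand: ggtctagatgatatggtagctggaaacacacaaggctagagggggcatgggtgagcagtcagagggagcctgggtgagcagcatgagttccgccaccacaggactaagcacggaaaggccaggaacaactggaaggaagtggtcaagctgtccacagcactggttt
Ptgs1, chr2:36230176-36230425, plus strand: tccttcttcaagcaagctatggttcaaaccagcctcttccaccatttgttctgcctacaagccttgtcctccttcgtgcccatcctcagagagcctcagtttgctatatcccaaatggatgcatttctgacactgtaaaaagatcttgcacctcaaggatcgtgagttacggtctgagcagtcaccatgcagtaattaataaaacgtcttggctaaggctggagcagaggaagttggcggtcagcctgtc
Ptgs2, chr1:150099781-150100030, plus strand: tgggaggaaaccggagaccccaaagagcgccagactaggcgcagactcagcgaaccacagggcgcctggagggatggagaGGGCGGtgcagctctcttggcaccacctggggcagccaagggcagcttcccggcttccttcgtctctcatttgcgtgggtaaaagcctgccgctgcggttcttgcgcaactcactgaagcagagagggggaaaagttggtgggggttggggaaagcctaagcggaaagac

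These 250-base windows were searched on both strands for the GC box GGGCGG, the TATA box TATAAA, the E-box CACGTG and the core of the cAMP response element, TGACG. Alox5 held 1 GC box, whose first base was at position -35 from the start, and Ptgs2 held 1 at position -170. None of the 4 motifs was found in the windows of Ltc4s and Ptgs1, and no match overlapped another. For Ltc4s the search and the GC content used all 250 bases, also those past the GENCODE start that are not printed. Among 32851 windows of the same length, 32.7% held the GC box, 12.4% the TATA box, 6.02% the E-box and 17.8% the cAMP element core. The GC content was 52.8% for Alox5, 57.6% for Ltc4s, 48% for Ptgs1 and 61.6% for Ptgs2, against a median of 52.4% over all windows.

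The labels were checked with Postn, which measured 58.3 FPKM in WT against 16.2 in Postn-DTR. Aldh1a2, the gene that names the targeted cells, was at 85.5 and 63.3. The libraries were of similar depth, at an estimated 23200000 and 24300000 fragments. The WT library held pancreatic acinar transcripts, 2.26% of its summed FPKM against 0.00303% in Postn-DTR, and the sum of all FPKM was 542190 for WT and 671882 for Postn-DTR. Removing the acinar genes and giving both libraries the same total lowered the median over all genes, a shift of -0.30 on the log2 scale, so smaller changes in a single gene cannot be told apart from scaling. With 1 library per genotype there was no spread between replicates and no test, and each change is log2(FPKM + 1) in Postn-DTR less that in WT, a scale on which low genes appear to differ less than they do. Genes are called at least 2-fold higher or lower, or within 2-fold, by this change (1 or more, or -1 or less), while a fold value printed for a single gene is the ratio of its FPKM. A gene near the line can therefore have a ratio of 2 or more and still count as within 2-fold.

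The lipoxygenase and leukotriene genes were higher in Postn-DTR omentum, and the prostaglandin genes compared stayed within 2-fold. All 4 genes of the first kind, Alox15, Alox5ap, Alox5 and Ltc4s, were at least 2-fold higher, with changes from 1.07 to 3.22 and a median of 1.43. Of the 5 prostaglandin genes compared, 0 changed at least 2-fold, and their changes ran from -0.78 to 0.66 with a median of -0.03. Of the 9 genes compared together, 4 were thus at least 2-fold higher and 0 lower, which became 2 higher and 1 lower with the acinar genes removed and equal totals. Among all genes compared, 3.88% were at least 2-fold higher and 3.12% at least 2-fold lower (2.27% and 5.65% at equal totals), with a median change of 0.02, and 7% passed 2-fold in either direction. The difference between the branches was not tested, and a whole tissue does not show whether more cells of a type or more RNA per cell gave a value.

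**Figure D1:**
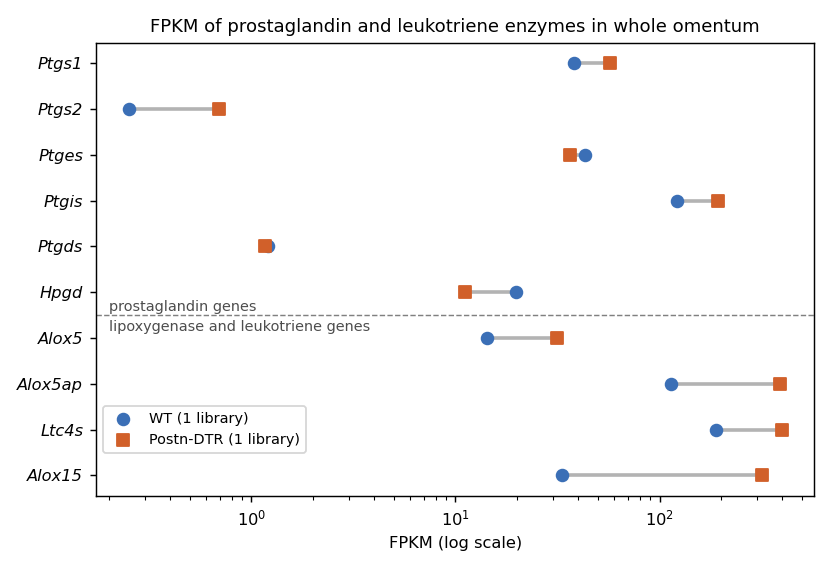
FPKM (log axis) of the 10 genes in the WT library (circles) and the Postn-DTR library (squares), with 1 library each and no error bars. The 4 lipoxygenase and leukotriene genes below the dashed line all lie further right in Postn-DTR, Alox15 by the widest gap, from 33.1 to 317.

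Alox15 had the largest change of the 9. It encodes a lipoxygenase that oxygenates polyunsaturated fatty acids, and its products include precursors of lipoxins and other mediators linked to the end of inflammation. The gene (ENSMUSG00000018924, chromosome 11, 70344152 to 70352031, minus strand, GRCm38) measured 33.1 FPKM in WT against 317 in Postn-DTR, or 9.57-fold higher. Its change of 3.22 was larger than that of 99.7% of genes compared. It stayed at least 2-fold higher under all 7 alternatives in which its change was recomputed, from 2.88 to 3.25.

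Alox15 was also the main lipoxygenase transcript. The other 5 lipoxygenase genes of the pathway list were low in both libraries: Alox12, known from platelets, measured 1.49 FPKM in WT against 0.774 in Postn-DTR, Alox12e 0.489 and 0.748, and Aloxe3, a gene of the skin barrier, 0.239 and 0.764. Summed over these 5 genes, Alox5 and Alox15, the FPKM was 49.8 in WT and 351 in Postn-DTR. Alox15 made up 66.5% of that sum in WT and 90.3% in Postn-DTR. Relative to Alox5, its FPKM was 2.33 times as high in WT and 10 times as high in Postn-DTR.

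The members Alox5ap, Alox5 and Ltc4s were each at least 2-fold higher on the deposited FPKM. Alox5ap (ENSMUSG00000060063, chromosome 5, 149264767 to 149288153, plus strand), whose product presents arachidonic acid to 5-lipoxygenase, measured 114 FPKM in WT against 390.1 in Postn-DTR, or 3.42-fold higher with a change of 1.76. Alox5 (ENSMUSG00000025701, chromosome 6, 116410077 to 116461178, minus strand), the 5-lipoxygenase itself, had an FPKM of 14.2 and 31.6, or 2.22-fold higher with a change of 1.10. Ltc4s (ENSMUSG00000020377, chromosome 11, 50236461 to 50238616, minus strand), which commits leukotriene A4 to the cysteinyl leukotrienes, had an FPKM of 188 and 397, or 2.11-fold higher with a change of 1.07.

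Alox5 and Ltc4s lay close to the 2-fold line. With the acinar genes removed and both totals made equal, Alox5 changed by 0.77 and Ltc4s by 0.73, so that 2 of the 9 genes, Alox5ap at 1.42 and Alox15 at 2.88, were at least 2-fold higher, where 2.27% of all genes were. In that setting 7.91% of all genes passed 2-fold in either direction, as did 3 of the 9 members. With a pseudocount of 5 Alox5 changed by 0.93. All 4 genes kept a positive change under every alternative. Their values rested on about 864 estimated reads (Alox5 in WT) to 17000 (Alox15 in Postn-DTR), so counting error was small beside the differences: the 95% interval of the ratio was 2.01 to 2.22 for Ltc4s and 9.1 to 10.1 for Alox15. Alox5ap and Ltc4s, like Ptgs1 and Ptgis, overlap annotated genes on the opposite strand, and Ptges and Hpgd overlap others on their own strand, so part of their reads is uncertain. Alox5ap was more abundant than Alox5 in both libraries, at 8.01 times its FPKM in WT and 12.3 times in Postn-DTR, while the ratio of Ltc4s to Alox5 was 13.2 and 12.6.

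**Figure D2:**
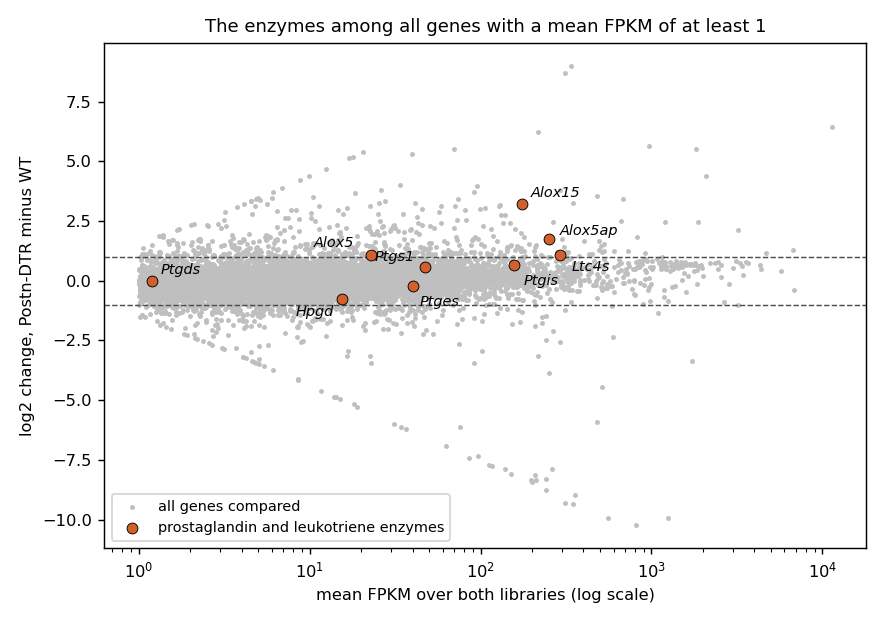
Log2 change (Postn-DTR minus WT, of FPKM + 1) against mean FPKM (log axis) for all 13127 genes compared (grey) and the 9 enzymes among them (orange), with dashed lines at 2-fold. Alox15, Alox5ap, Alox5 and Ltc4s lie above the upper line, and the other 5 lie between the lines.

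The cyclooxygenases were represented by Ptgs1, the form that most tissues make all the time. Ptgs1 (ENSMUSG00000047250, chromosome 2, 36230426 to 36252272, plus strand) measured 37.9 FPKM in WT against 57.2 in Postn-DTR, 1.51-fold higher with a change of 0.58 that became 0.25 at equal totals. Ptgs2 (ENSMUSG00000032487, chromosome 1, 150100031 to 150108227, plus strand), the form induced by inflammatory signals, measured 0.250 FPKM in WT against 0.695 in Postn-DTR. It was under the minimum for comparison in both. These values correspond to about 24.7 and 71.6 reads, estimated from the annotated length, and the ratio of 2.77 had a 95% interval of 1.72 to 4.53, exact binomial and covering counting error only. Ptgs1 had 151 times the FPKM of Ptgs2 in WT and 82.4 times in Postn-DTR.

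Among the prostanoid synthases Ptgis was the most abundant. It encodes prostacyclin synthase, known from vessel walls and stroma, and the gene (ENSMUSG00000017969, chromosome 2, 167191805 to 167240604, minus strand) measured 122 FPKM in WT against 193 in Postn-DTR. This was 1.59-fold higher, a change of 0.66 that became 0.32 at equal totals. Ptges (ENSMUSG00000050737, chromosome 2, 30889471 to 30929863, minus strand), the inducible prostaglandin E2 synthase, had an FPKM of 43.3 and 36.6, a change of -0.24. The ratio of Ptgis to Ptges was 2.81 in WT and 5.29 in Postn-DTR. Ptgds (ENSMUSG00000015090, chromosome 2, 25466709 to 25470046, minus strand), the lipocalin-type prostaglandin D2 synthase, was near the minimum, with an FPKM of 1.21 and 1.17 from about 19.6 and 19.7 reads. At that depth its ratio of 0.967 had an interval of 0.49 to 1.88, so a difference of less than about that size was not detectable.

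Other terminal synthases, from the pathway list described further on, also stayed within 2-fold in 7 of 7 genes compared. Fam213b, whose product can make prostaglandin F2, measured 69.3 FPKM in WT against 51.2 in Postn-DTR. Ptges3, a co-chaperone also described as a prostaglandin E2 synthase, had 52.9 and 53.0, and Cbr1, a carbonyl reductase that acts on prostaglandins, had 47.8 and 52.3. Among the 7 genes compared, the highest changes were those of Tbxas1 and Hpgds. Tbxas1, the thromboxane synthase, was at 25.6 and 44.9 with a change of 0.78. Hpgds, the hematopoietic prostaglandin D2 synthase, was at 2.99 and 4.82 with a change of 0.54. Summed over 8 terminal synthases of prostaglandin E2, D2, F2, prostacyclin and thromboxane, Ptgis made up 36.9% of the FPKM in WT and 48.6% in Postn-DTR. Akr1c18, chosen after its values were seen, encodes a reductase that can act in prostaglandin F2 synthesis and was listed at 0 in WT and at 1.54 in Postn-DTR, with a mean under the minimum.

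Hpgd was the member with the most negative change. It encodes the dehydrogenase that inactivates prostaglandin E2, and the gene (ENSMUSG00000031613, chromosome 8, 56294585 to 56321043, plus strand) measured 19.8 FPKM in WT against 11.2 in Postn-DTR. It was 1.78-fold lower with a change of -0.78, and 5.23% of genes compared had a more negative change. At equal totals the change was -1.09, which placed it past 2-fold, where 5.65% of all genes were lower by that much. Of the other genes of prostaglandin transport and reduction, 4 of 4 stayed within 2-fold. Slco2a1, the uptake transporter that works ahead of Hpgd, had an FPKM of 32.5 and 28.3, and the reductases Ptgr2 and Ptgr1 had 25.0 and 18.3, and 7.96 and 9.88.

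**Figure D3:**
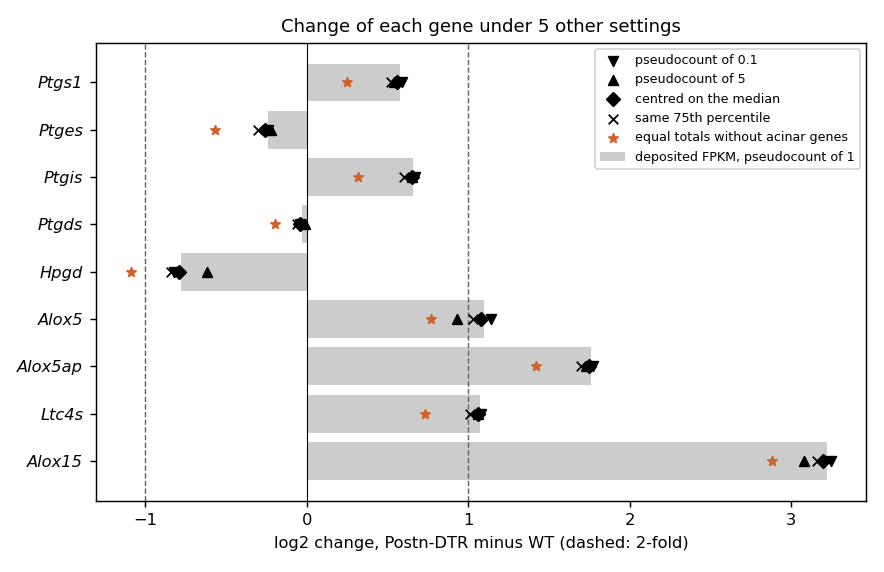
Log2 change of the 9 genes compared (bars, deposited FPKM with a pseudocount of 1) and under 5 other settings (symbols), with dashed lines at 2-fold. Equal totals without the acinar genes (star) shifts every gene to the left, which brings Alox5 and Ltc4s under the upper line and Hpgd past the lower line, while Alox15 and Alox5ap stay above 2-fold.

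The order of the levels differed between the libraries, without a spread to say which neighbours truly differ. In WT the highest FPKM was that of Ltc4s, followed by Ptgis, Alox5ap, Ptges, Ptgs1, Alox15, Hpgd, Alox5, Ptgds and Ptgs2. In Postn-DTR the order was Ltc4s, Alox5ap, Alox15, Ptgis, Ptgs1, Ptges, Alox5, Hpgd, Ptgds and Ptgs2. Alox15 moved from a level above 79.9% of genes compared to one above 97.8%, and Alox5ap from 94.7% to 98.2%. Hpgd moved the other way, from above 67.1% of genes compared to above 49%.

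The wider pathway was followed in 56 further genes for the release of arachidonic acid, synthesis, transport, breakdown and reception. Of these, 39 passed the minimum, 2 were at least 2-fold lower and 2 at least 2-fold higher, and their median change was 0.02, the same as over all genes compared. Among all genes compared, 3.12% were at least 2-fold lower and 3.88% higher. At equal totals without the acinar genes, 3 pathway genes were lower and 2 higher, beside 5.65% and 2.27% of all genes. On the deposited FPKM, the phospholipases that free arachidonic acid gave 1 gene past 2-fold out of 8 compared. This was Pla2g1b, a digestive enzyme of pancreatic acinar cells, at 72.7 FPKM in WT and listed at 0 in Postn-DTR, and it is also on the list of 21 acinar genes, all of which were lower in Postn-DTR. Pla2g4a, the cytosolic phospholipase A2 that supplies both branches, was at 8.25 and 8.10. Mgll, a lipase of adipocytes that also frees precursor fatty acids, had an FPKM of 105 and 59.7, or 1.76-fold lower, and Pla2g12a had 16.9 and 27.3.

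Of the other 3 genes past 2-fold, Dpep2 and Ggt5 act on leukotrienes after their synthesis and Fpr2 encodes a receptor. Dpep2, a dipeptidase that turns leukotriene D4 into leukotriene E4, measured 9.34 FPKM in WT against 81.3 in Postn-DTR, or 8.70-fold higher with a change of 2.99. Ggt5, which turns leukotriene C4 into leukotriene D4, had an FPKM of 10.4 and 3.69, or 2.82-fold lower with a change of -1.28. Ggt1, a related transferase chosen after its values were seen, had 1.94 and 0.518, a ratio of 3.75-fold lower but a change of -0.95, so that it counts as within 2-fold. The Ggt1 values rested on about 88.4 estimated reads in WT and 24.6 in Postn-DTR. Lta4h, which makes leukotriene B4, had 37.8 and 42.6, so that the ratio of Ltc4s to Lta4h was 4.97 in WT and 9.31 in Postn-DTR. Dpep1 had an FPKM of 37.6 and 47.4. Dpep2 overlaps Dus2 on the opposite strand, at 9.05 and 6.65. It also overlaps the non-coding genes Gm45752 on the opposite strand and Gm22972 on its own strand, which had no value here. The part of overlapping reads in the Dpep2 values was not tested.

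Receptors of the pathway mostly stayed within 2-fold, as did most genes compared, of which 7% passed 2-fold in either direction. Of 6 prostanoid receptors compared 0 changed at least 2-fold. Ptger3, a prostaglandin E2 receptor that lowers lipolysis in fat, measured 53.6 FPKM in WT against 33.9 in Postn-DTR, Ptger1 had 27.4 and 32.8, and Ptger4 had 9.90 and 10.1. Of 3 leukotriene receptors compared 0 changed at least 2-fold, with Ltb4r1, the receptor for leukotriene B4, at 4.15 and 6.31, Cysltr1 at 4.94 and 4.30 and Cysltr2 at 1.17 and 0.887. Fpr2, a receptor on phagocytes for formylated peptides and lipoxin A4, had an FPKM of 4.71 and 16.2, or 3.45-fold higher with a change of 1.59. Cmklr1, described as a receptor for chemerin and resolvin E1, had 54.7 and 67.7.

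**Figure D4:**
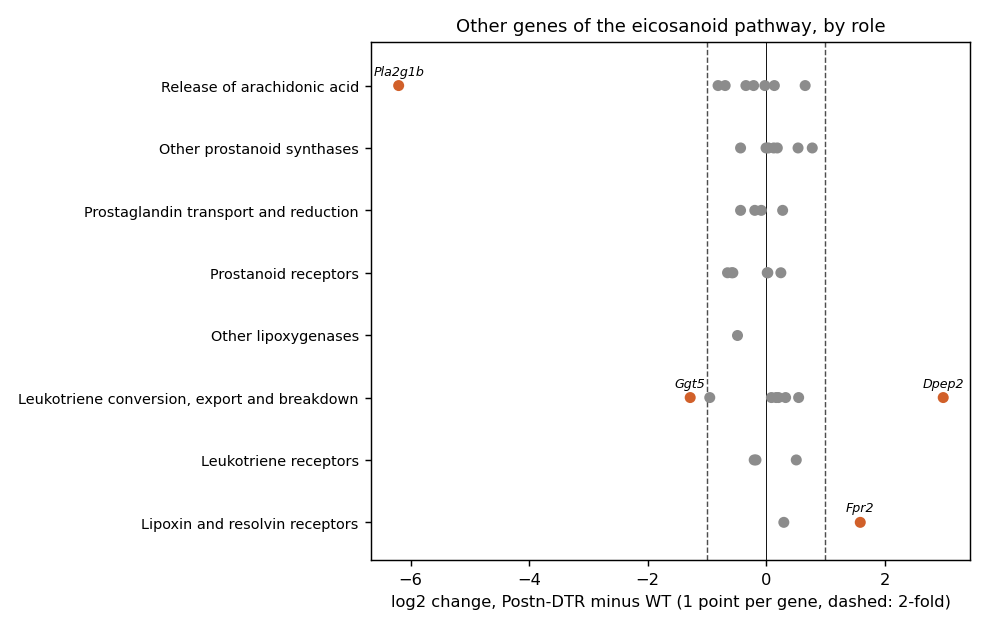
Log2 change of the 39 further pathway genes that passed the minimum, grouped by role, with 1 point per gene and dashed lines at 2-fold. The 4 genes past 2-fold are named: Dpep2 and Fpr2 are higher and Ggt5 and Pla2g1b lower in Postn-DTR.

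Macrophage, mast cell and neutrophil markers moved in the same direction as the leukotriene genes, while eosinophil markers were near 0 or within 2-fold. Of 8 macrophage markers 4 (Adgre1, Cd68, Itgam and Cd14) were at least 2-fold higher and 0 lower, with a median change of 1.33 and a summed FPKM of 2920 in WT against 4880 in Postn-DTR. Cd68, a lysosomal protein of macrophages, had an FPKM of 114 and 369. Csf1r, the receptor for macrophage growth factor, had 158 and 219, and Lyz2, the lysozyme of myeloid cells, had 2459 and 3563. Mertk lay just under the line, with a change of 0.98. The paper counted cells 5 days after DT and found unchanged numbers of omental macrophages in Postn-DTR mice. Those are counts of cells, not RNA, and how they relate to these marker values was not tested. For large peritoneal macrophages 4 of 6 markers (Prg4, Selp, Garnl3 and Vsig4) were at least 2-fold higher, with a median change of 1.51 and a sum of 145 and 806. That sum was led by Prg4, at 38.0 and 545, and Vsig4 was at 45.6 and 130. Timd4, at 29.6 and 39.2, and Gata6, the factor that defines these cells, at 18.6 and 33.1, stayed within 2-fold. Their changes of 0.39 and 0.80 became 0.06 and 0.47 at equal totals.

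Mast cell markers were at least 2-fold higher in 4 (Cpa3, Cma1, Tpsb2 and Fcer1a) of the 5 genes compared, of 6 listed, with a median change of 2.29 and a sum of 61.0 and 276. The proteases Cpa3, Cma1 and Tpsb2 had an FPKM of 10.7 and 52.5, 16.5 and 84.8, and 18 and 100. Neutrophil markers were at least 2-fold higher in 4 of 6 genes (Csf3r, Cxcr2, Retnlg and Mmp8), with a median change of 1.42 and a sum of 348 and 687. S100a8 had 170 and 339, S100a9 157 and 249, and Retnlg 12.8 and 72.6. Of the eosinophil markers, the granule peroxidase Epx was at 0.0862 and 0.0333, Siglecf at 0.0584 and 0.207 and Ccr3 at 0.363 and 0.122, all near 0, although Prg2 was at 8.30 and 9.26 and Il5ra at 3.69 and 6.29, with a sum over 5 markers of 12.5 and 15.9. No macrophage, mast cell, neutrophil or eosinophil marker was listed at 0. The part of these cell types in the values of the leukotriene genes was not tested.

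Mesothelial, endothelial, platelet and fibroblast lists, from cell types known for prostacyclin or Ptgs1, had median changes between -0.19 and 0.47. At equal totals these medians lay between -0.53 and 0.28. Mesothelial markers had a summed FPKM of 515 in WT against 557 in Postn-DTR, with 1 of 7 (Lrrn4) at least 2-fold lower and a median change of 0.27, which became -0.06 at equal totals. Upk3b was at 212 and 182, Krt19 at 104 and 132 and Wt1 at 52.1 and 63.2. Of 6 blood endothelial markers 0 changed at least 2-fold, with a sum of 280 and 259 and with Pecam1 at 109 and 110. Platelet markers had a sum of 150 and 286, nearly all of it Pf4, a platelet chemokine also made by macrophages, at 147 and 281, whereas Itga2b was at 1.88 and 3 and Ppbp at 0.684 and 1.32. Fibroblast markers had a sum of 3040 and 2980, with 1 of 7 (Dpt) at least 2-fold lower, and Dcn was at 1875 and 2152, Col1a1 at 422 and 313 and Col1a2 at 407 and 357.

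Lymphoid and dendritic cell markers went in the opposite direction from the leukotriene genes. T cell markers were at least 2-fold lower in 3 of 5 genes (Cd3e, Cd4 and Lck), with a sum of 76.4 in WT and 34.1 in Postn-DTR, and Lck, Cd3g and Cd3e had an FPKM of 20.3 and 8.37, 18.7 and 10.5, and 15.6 and 6.82. Cd3d lay just inside the line, with a change of -0.95. B cell markers were at least 2-fold lower in 2 of 5 (Ms4a1 and Fcer2a), with a sum of 467 and 323, led by Cd79a at 191 and 170 and Cd79b at 137 and 96.0. Dendritic cell markers were at least 2-fold lower in 4 of 5 (Flt3, Xcr1, Cd209a and Itgax), with a sum of 42.1 and 17.0, and Cd209a was at 15.8 and 6.05, Itgax at 11.2 and 4.06 and Zbtb46 at 5.78 and 4.90. The labelled tissue had its adipocyte markers, with Fabp4 at 4879 and 6519, Adipoq at 955 and 636 and Retn at 940 and 641, and 0 of 6 changed at least 2-fold, with a sum of 7630 and 8600.

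**Figure D5:**
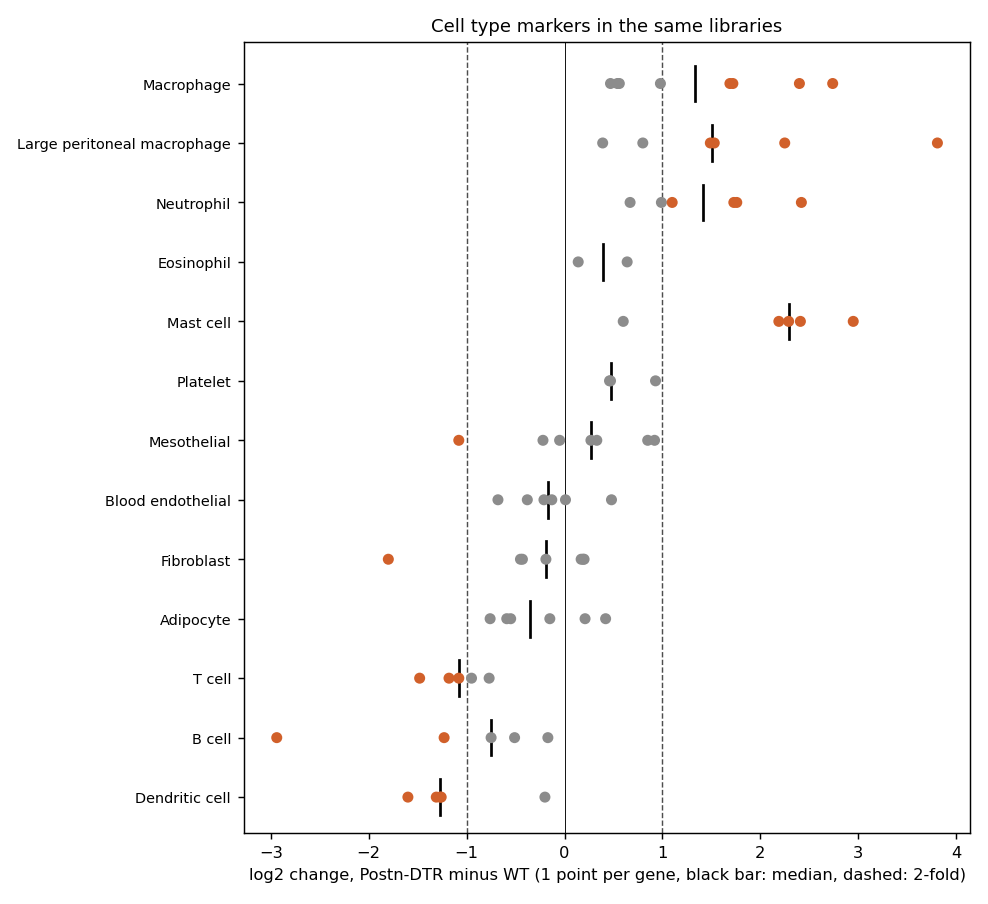
Log2 change of cell type markers that passed the minimum (1 point per gene, black bars at the median of each list, dashed lines at 2-fold). Medians lie above 2-fold for macrophages, large peritoneal macrophages, neutrophils and mast cells and below it for T cells and dendritic cells, although with a pseudocount of 5 those of neutrophils (0.86), T cells (-0.80) and dendritic cells (-0.83) came within 2-fold.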

How the data were processed

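Whole-omentum RNA was measured in 2 libraries, 1 of WT and 1 of Postn-DTR mice, grouped by their genotype label. Per the labels, a miRNeasy kit gave the RNA and a TruSeq kit for stranded mRNA gave the libraries. The authors deposited FPKM, 1 value per gene symbol. The submitters' processing notes list TopHat2 2.1.1, Bowtie2 2.2.8, SAMtools 0.1.18, Cuffdiff 2.2.1 and mm10, without saying which did what. The annotation, strand setting and depth were not given in the sources used here. Cuffdiff can share reads between overlapping genes and isoforms.

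Changes of log2(FPKM + 1) were computed over genes whose FPKM averaged 1 or more, without a test, and called at 2-fold (Python 3.11.15, pandas 2.3.3, tested on simulated data). Low values served to estimate depth. Among 723 genes under 0.1 FPKM in both libraries, 174 had a ratio of 0.967, the worth of 1 read in Postn-DTR over that in WT. Numbers of fragments came from genes with 1 annotated transcript, where 70% of low WT values and 69.5% of Postn-DTR values lay within 0.05 of a whole read; the fit itself chose these numbers, and reads per gene are approximate. Positions are from GENCODE M21 (GRCm38), in which 23310 symbols (95.7%) matched. Prxl2b was read under its older symbol Fam213b, and Ly6g was not analysed here.

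Members and lists were chosen with earlier results of these data known. Named were all members, pathway genes past 2-fold, the 3 highest of each role or marker list, Postn and Aldh1a2, except 1 marker that is not reported here. Other genes, including the marker genes past or near 2-fold and Pla2g4a, Tbxas1, Hpgds, Gata6, Siglecf and Epx, were chosen after their values were seen. The alternatives were pseudocounts of 0.1 and 5, no minimum, a minimum of 10, median centring, a common 75th percentile, equal totals without acinar genes, and thresholds of 1.5 and 3.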

Additional observations from a re-analysis of the deposited data

How the results depend on the processing

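No paired analysis was possible because there was 1 library per genotype and the labels carry no replicate numbers, and leaving out a library was not possible either. Each of the 9 enzymes compared kept the sign of its change under every alternative run for it. Of the 4 members at least 2-fold higher, 2 remained at equal totals without the acinar genes (Alox5ap and Alox15) and 2 at a 3-fold threshold, again Alox5ap and Alox15. The count of lower members rose from 0 to 1, Hpgd, at equal totals and at a 1.5-fold threshold. The members' median change of 0.66 became 0.87 with a minimum of 10, which leaves out Ptgds, and 0.32 at equal totals. Of the further pathway genes, the 2 that were lower became 3 with a pseudocount of 0.1 and at equal totals. They became 1 with a pseudocount of 5, with a minimum of 10 and at 3-fold, and 6 at 1.5-fold. The 2 that were higher became 3 with no minimum and 4 at 1.5-fold. Over all genes, the 410 lower genes became 643 and 168 with pseudocounts of 0.1 and 5, 173 with a minimum of 10, 740 at equal totals, and 1160 and 153 at thresholds of 1.5-fold and 3-fold. The 509 higher ones numbered 287 with a pseudocount of 5, 303 with a minimum of 10, 297 at equal totals, and 1294 and 199 at those thresholds. Higher minimums and thresholds lower a count by construction. Equal totals lower every change, since the Postn-DTR FPKM summed to more. The mesothelial median turned from 0.27 to -0.06 at equal totals. With a pseudocount of 5 the neutrophil, T cell and dendritic cell medians (1.42, -1.08 and -1.27) became 0.86, -0.80 and -0.83, and at equal totals the B cell median went from -0.75 to -1.08. Depth limited Ptgs2 and Ptgds, with fewer than 100 estimated reads in each library.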

Other observations

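A further branch of arachidonic acid metabolism runs through cytochrome P450 enzymes and was looked at with lists written after the data were examined. Of 24 epoxygenase and omega-hydroxylase genes, 6 passed the minimum, 1 was at least 2-fold higher and 0 were lower in Postn-DTR. The gene was Cyp4a10, a fatty acid omega-hydroxylase, at 0.159 FPKM in WT against 1.96 in Postn-DTR. Its mean of 1.06 lay just over the minimum, which it passed only through the Postn-DTR library, where it was high. The epoxygenases Cyp2j6 and Cyp2j9 had 6.36 and 5.14, and 4.66 and 2.64, and Cyp4f13 and Cyp4f16 had 15.4 and 17.5, and 12.1 and 11.5. Epoxide hydrolases were more abundant. Ephx1 had an FPKM of 108 and 89.8 and Ephx2, the soluble form that removes epoxides of arachidonic acid, had 85.4 and 74.3, while Ephx3, known from skin, had 7.23 and 0.169, or 42.9-fold lower. Of 3 epoxide hydrolases compared, 1 was at least 2-fold lower, namely Ephx3, which passed the minimum only through the WT library. Among all genes compared, 3.88% were at least 2-fold higher and 3.12% at least 2-fold lower.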
